A study of Caenorhabditis elegans with 24 samples.

Results

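The genes described are 7 genes of fatty acid synthesis and elongation, given with the sequence names of the count files: *fasn-1* (F32H2.5), *pod-2* (W09B6.1), *elo-1* (F56H11.4), *elo-2* (F11E6.5), *elo-3* (D2024.3), *elo-5* (F41H10.7) and *elo-6* (F41H10.8). They were chosen by name, as 7 of the 44968 identifiers in the files, and all 7 were among the 19050 genes with more than 1 CPM (counts scaled by the library's total on genes) in at least 4 libraries. *Caenorhabditis elegans* larvae of strain LRB269 were assayed by mRNA-seq in 24 libraries, 4 in each of 6 conditions. All larvae were mutant for *glc-1*, *glc-3*, *avr-14* and *avr-15*, which encode channels through which ivermectin acts, and carried *avr-15* under the pharyngeal *myo-2* promoter in an array that also holds P*myo-2*::mCherry and P*hlh-8*::GFP, so that the drug acts on the pharynx and blocks ingestion. Embryos hatched without food over 24 h and entered L1 arrest, with 5 ng/mL ivermectin or with its solvent DMSO. HB101 bacteria at 25 mg/mL were then given or withheld. Without the drug, larvae with food (F) and larvae without it (S) were collected after 1 h. With the drug, larvae with food (IvF) and without food (IvS) were collected after 1 h or 24 h. A general section of the study's methods gives a higher dose of ivermectin for this strain than its sequencing methods and the labels. The comparison of F with S asks what feeding changes, and that of IvF with IvS asks what food that is not ingested changes.

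*C. elegans* makes fatty acids in the cytosol and lengthens them on the endoplasmic reticulum. Acetyl-CoA carboxylase, encoded by *pod-2*, makes malonyl-CoA, the donor of carbon pairs, and fatty acid synthase, encoded by *fasn-1*, joins these into saturated chains. Elongases then extend chains by a carbon pair per cycle. ELO-1 and ELO-2 act on straight chains, ELO-1 on polyunsaturated precursors and ELO-2 on palmitate, and ELO-5 and ELO-6 make the monomethyl branched-chain fatty acids, which larvae need to leave L1 arrest and grow. ELO-3 belongs to the same family by sequence.

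Libraries held 8690378 to 14139935 reads on genes without ivermectin and 14498061 to 19448998 with it, and reads outside annotated features were 2.67% to 3.70% and 4.39% to 11.3% of the aligned reads. The labels number the replicates 1 to 4 without the drug and use 4 other numbers with it, called A to D here from the lowest number up, so that ivermectin, depth and numbering cannot be told apart. The deposited files of 3 of the 4 replicates without the drug carry numbers that are also used with it, and whether the arms share cultures is not stated in the sources used here. The tests between the arms treat them as separate. One starved library, S replicate 4, stood apart from its group: 103 genes were more than 4 times lower and 44 more than 4 times higher in it (CPM + 1) than in the nearest other S library, and *elo-5* and *elo-6* were among the lower ones. Such genes numbered 47 in F replicate 3, 29 each in F replicate 4 and IvF replicate A at 1 h, and 0 to 19 in the other libraries, with none of the 7 genes among them. The values of the 7 genes that changed most without S replicate 4 or IvF replicate A at 1 h are given with and without these libraries. The larvae were whole, so fewer cells of a type and less RNA per cell cannot be told apart. Of the marker lists of 7 tissues every gene had reads except *hlh-1*, a muscle transcription factor listed at 0 in every library, and the vitellogenin genes of adults together had 2.02 to 124.9 CPM. Whether the 0 of *hlh-1* comes from expression or from the annotation and counting was not tested.

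The 7 genes lie on chromosomes I (*fasn-1*), II (*pod-2*) and IV (the elongase genes) in the WBcel235 annotation. There *elo-5* and *elo-6* are on the same strand with 3 protein-coding genes between them, and *elo-1* neighbours another elongase gene, *elo-7*. The library kit did not mark strand. Exons of *pod-2* overlap those of W09B6.4 over 139 bases, those of *elo-3* overlap *gstk-2* over 44 bases and those of *elo-5* overlap F41H10.3 over 162 bases, so reads from these stretches cannot be assigned to a gene. No such overlap was found for *fasn-1*, *elo-1*, *elo-2* or *elo-6*.

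Levels per kilobase of exon differed widely among the genes. In fed larvae *elo-6* had 1095 ± 173 CPM per kb and *elo-1* had 993 ± 103 (SD, n = 4 here and below), followed by *elo-2* at 584 ± 146, *elo-5* at 400.5 ± 78.0, *fasn-1* at 56.1 ± 8.02, *pod-2* at 33.6 ± 5.19 and *elo-3* at 4.31 ± 0.947. The elongase genes other than *elo-3* were thus above the synthase and the carboxylase on this scale. With ivermectin and without food for 1 h the order was different: *elo-6* had 551 ± 111 CPM per kb, *elo-1* 382 ± 18.2, *pod-2* 222.5 ± 30.6, *elo-2* 131 ± 12.7, *elo-5* 102 ± 15.2, *fasn-1* 46.6 ± 2.92 and *elo-3* 10.7 ± 4.18. Here *pod-2* stood above *elo-2*, *elo-5* and *fasn-1*. The least abundant gene, *elo-3*, was counted with 29 to 77 reads in a library without ivermectin and with 129 to 1762 with it, whereas each other gene had at least 111 reads in every library.

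**Figure D1:**
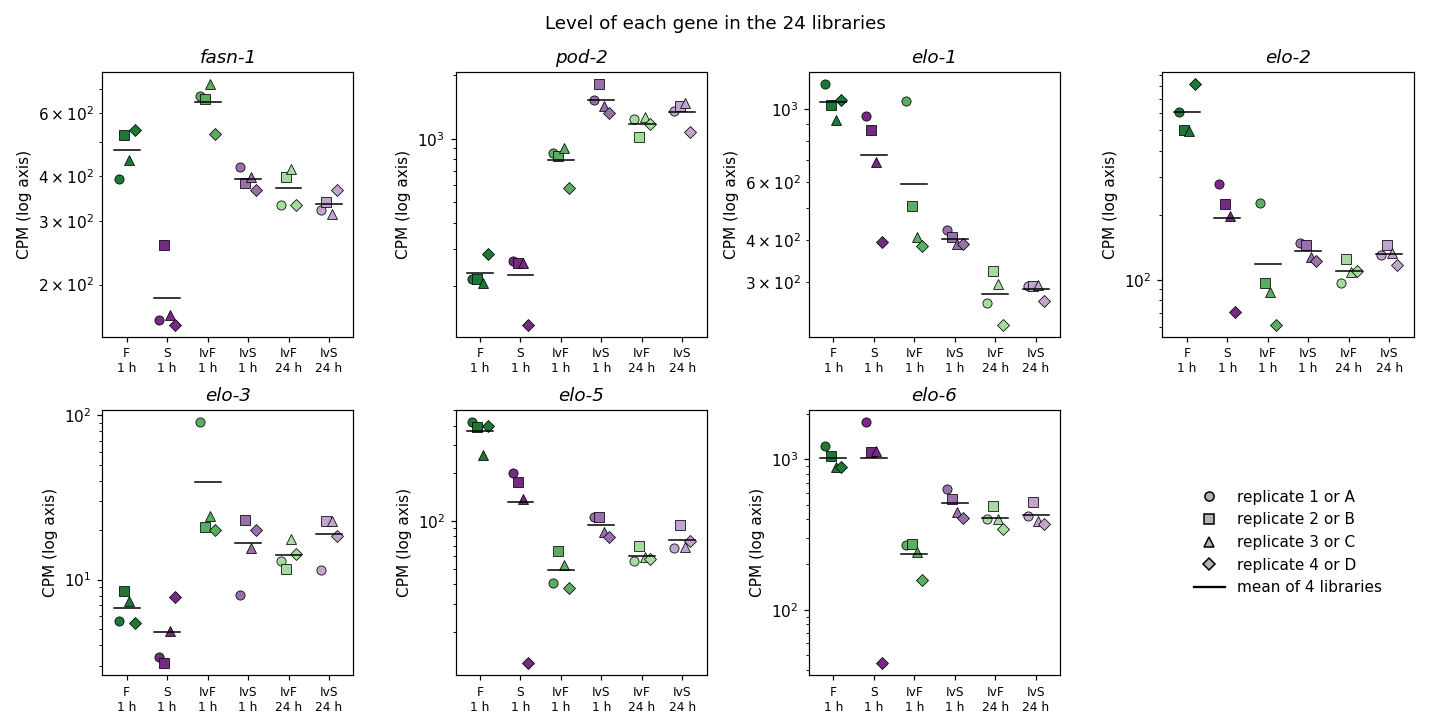
CPM of each gene (log axis) in the 24 libraries by condition; symbols mark the replicate, colours the condition and lines the mean of 4 libraries. The starved replicate 4 lies far below its group for *elo-5* (12.7 CPM) and *elo-6* (44.3 CPM), and replicate A of IvF at 1 h lies above its group for *elo-1*, *elo-2* and *elo-3*.

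After 1 h of feeding *fasn-1*, *elo-2* and *elo-5* were higher, so that genes of chain synthesis, of straight-chain elongation and of branched-chain elongation were each among those that rose, by 2.25, 2.63 and 2.35 times in F against S. None of the 7 fell. At the thresholds used throughout, an adjusted p below 0.05 in edgeR's quasi-likelihood test with Benjamini-Hochberg adjustment and an absolute log2 fold change above 0.5, 13.6% of all genes tested were higher and 15.4% lower in F. The median log2 fold change was 0.31 over the 7 genes and -0.07 over all genes. Summed markers of the intestine ranged from 1634 to 1918 CPM in F and from 948 to 2036 CPM in S, and those of the germline from 41.7 to 53.2 CPM and from 13.2 to 24.7 CPM; their part in these results was not tested.

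In F the level of *fasn-1* was 393, 520.2, 444 and 539 CPM in replicates 1 to 4, and in S it was 159, 258, 164 and 154.5 CPM. Every fed library was above every starved one, and S replicate 2 was the highest of its group. The log2 fold change was 1.17 ± 0.18 (SE; adjusted p = 2.06e-05). For *pod-2* F had 215, 217, 206 and 283 CPM and S had 262, 257, 257 and 131 CPM. The carboxylase gene thus did not follow the synthase: the groups overlapped and the log2 fold change of -0.23 ± 0.24 had a 95% interval from -0.72 to 0.27 (adjusted p = 0.519). Without S replicate 4, its lowest library, the value was -0.43 (adjusted p = 0.0895). Within a library there were 0.417 to 0.548 *pod-2* reads per *fasn-1* read in F and 0.850 to 1.65 in S.

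Of the genes for straight chains, *elo-2* had 606, 502, 494 and 820.3 CPM in F and 279, 226, 198 and 70.7 CPM in S. The groups did not overlap, with S replicate 4 again the lowest, and the log2 fold change was 1.39 ± 0.40 (adjusted p = 0.00905). It was 1.12 without S replicate 4 (adjusted p = 0.0171). The other gene of this branch, *elo-1*, had 1191, 1029, 926 and 1068 CPM in F against 953, 865, 692 and 395 CPM in S. Here S replicate 1 lay within the range of F, and the change of 0.31 ± 0.32 did not pass the test (adjusted p = 0.51, 95% interval -0.35 to 0.98), nor did that of 0.09 without S replicate 4 (adjusted p = 0.856). Levels of *elo-3* were low, at 5.42 to 8.52 CPM in F and 3.11 to 7.89 CPM in S, and its groups overlapped (log2 fold change 0.29 ± 0.51, adjusted p = 0.722, and 0.53 with adjusted p = 0.556 without S replicate 4).

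The branched-chain genes parted. In F *elo-5* had 421, 393, 263 and 400.1 CPM, and in S it had 200.5, 177, 137 and 12.7 CPM. All 4 fed libraries were above all starved ones, and S replicate 4 was far below its group. The summed markers of this library were the highest of S for the intestine (2036 CPM), hypodermis (216 CPM), pharyngeal muscle (951 CPM) and body wall muscle (3379 CPM). So were those of the vitellogenin genes (124.9 CPM), while those of neurons and the germline were not. The part of these markers in this result was not tested. The log2 fold change was 1.23 ± 0.46 (adjusted p = 0.043). Without S replicate 4 it was 0.87 with an adjusted p of 0.00274, whereas it no longer passed without F replicate 1, 2 or 4 or S replicate 2 (adjusted p = 0.0966, 0.0615, 0.0626 and 0.0636), without a filter on low counts (0.118) or in a fit of these 8 libraries alone (0.200). For *elo-6* F had 1221, 1059, 883 and 894 CPM and S had 1766, 1112, 1141 and 44.3 CPM. The other 3 starved libraries were above 3 of the 4 fed ones. The log2 fold change was -0.28 ± 0.55 (adjusted p = 0.758, 95% interval -1.42 to 0.87) in all libraries and -0.66 (adjusted p = 0.0525) without S replicate 4. It passed, at -0.68, only with IvF replicate A at 1 h left out of the fit as well (adjusted p = 0.0397). There were 2.23 to 3.36 *elo-6* reads per *elo-5* read in F and 3.49 to 8.81 in S, the lowest of S in replicate 4, in which both genes were low.

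In the presence of ivermectin *fasn-1* was 1.65 times higher and *pod-2* 1.91 times lower with food at 1 h, so that the synthase and the carboxylase moved in opposite directions. None of the elongase genes passed the test. Of all genes 3.27% were higher and 2.29% lower in IvF than in IvS at 1 h, and the median log2 fold change was -0.10 over the 7 genes and 0.02 over all. Intestinal markers summed to 2072 to 2897 CPM with food, and the range without food, 1723 to 2768 CPM, overlapped it.

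At 1 h *fasn-1* had 671.5, 659, 724 and 525 CPM in IvF, in the order of replicates A, B, C and D, and 425, 384.5, 399 and 366 CPM in IvS. The groups did not overlap in CPM. With the TMM scaling of the test they just overlapped, with IvF replicate D at 407.3 and IvS replicate A at 407.5 CPM. The log2 fold change was 0.72 ± 0.18 (adjusted p = 0.0162). It did not pass without IvS replicate D (0.65, adjusted p = 0.0703) or IvF replicate A (0.59, adjusted p = 0.0758). The level of *pod-2* was 852, 826, 902 and 582 CPM in IvF and 1517, 1818, 1435 and 1330 CPM in IvS. Every library with food was below every library without it, with a log2 fold change of -0.93 ± 0.24 (adjusted p = 0.0184). This call was lost without IvS replicate B (-0.85, adjusted p = 0.0634) or IvF replicate D (-0.76, adjusted p = 0.0674). The ratio of the genes' reads within a library, which no scaling between libraries affects, was 1.11 to 1.27 *pod-2* reads per *fasn-1* read in IvF and 3.57 to 4.73 in IvS.

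**Figure D2:**
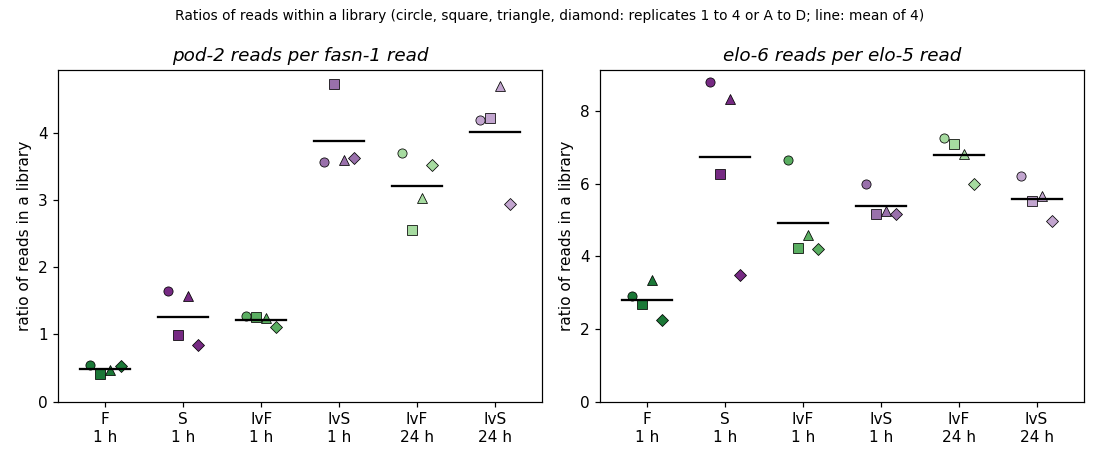
Reads of *pod-2* per read of *fasn-1* (left) and of *elo-6* per read of *elo-5* (right) in each library by condition; symbols mark the replicate and lines the mean of 4. The first ratio was lower with food than without it at 1 h, both without ivermectin (0.417 to 0.548 against 0.850 to 1.65) and with it (1.11 to 1.27 against 3.57 to 4.73), and the ranges of IvF and IvS overlapped at 24 h.

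For *elo-1* IvF had 1060.0, 510.3, 409.9 and 386 CPM and IvS had 430.5, 409.8, 391 and 389.6 CPM. Only replicate A of IvF stood well above the rest, and the log2 fold change of 0.63 ± 0.32 (adjusted p = 0.404) became 0.01 without it (adjusted p = 0.991). For *elo-2* the same library had 229 CPM against 96.2, 87.9 and 61.6 CPM in the rest of IvF, with 149, 146, 128 and 122 CPM in IvS. The 3 other IvF libraries were thus below all of IvS. The log2 fold change was -0.10 ± 0.39 (adjusted p = 0.999), and -0.82 without replicate A (adjusted p = 0.198). With S replicate 4 left out as well *elo-2* passed at the same log2 fold change of -0.82 (adjusted p = 0.0128).

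The level of *elo-3* was 90.6, 21.0, 24.3 and 20.0 CPM in IvF and 8.03, 23.1, 15.7 and 20.0 CPM in IvS. Apart from IvF replicate A the groups overlapped. The log2 fold change of 1.36 ± 0.45 had an adjusted p of 0.0907 in the quasi-likelihood test, 0.0223 in edgeR's exact test and 0.0285 in DESeq2, and it was 0.29 without replicate A (adjusted p = 0.81). It passed without IvF replicate B or D, at 1.56 and 1.60 (adjusted p = 0.0473 and 0.0353).

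The branched-chain genes were not high in replicate A. For *elo-5* IvF had 40.7, 64.4, 52.7 and 37.6 CPM and IvS had 106.5, 106, 85.4 and 79.4 CPM, and for *elo-6* they had 271, 272, 241 and 157 CPM and 637, 546, 448 and 409 CPM. Both genes were lower in every IvF library than in every IvS library. Their log2 fold changes, -0.95 ± 0.46 for *elo-5* and -1.09 ± 0.56 for *elo-6*, did not pass the test on all libraries (adjusted p = 0.347 and 0.406). In a fit of the 8 libraries compared, in which S replicate 4 takes no part, they passed (adjusted p = 0.0119 and 0.0225), and likewise in a fit without S replicate 4 and IvF replicate A (-0.95 and -1.28, adjusted p = 0.00906 and 0.00308). In that last fit, chosen after seeing the data, 5 of the 7 genes passed, *fasn-1* higher and *pod-2*, *elo-2*, *elo-5* and *elo-6* lower in IvF. Over all genes 536 were higher and 560 lower in it, beside 623 and 436 in the fit of all libraries.

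At 24 h the difference between IvF and IvS was not detected for any of the 7 genes in the quasi-likelihood test, in which 0.583% of all genes were higher and 0.194% lower in IvF. None had an unadjusted p below 0.05, and edgeR's exact test and DESeq2 also called 0. The level of *fasn-1* was 333, 399, 419 and 334 CPM in IvF and 323, 339, 315 and 367 CPM in IvS, and that of *pod-2* was 1234, 1022, 1271 and 1176 CPM against 1358, 1431, 1477 and 1078 CPM. Their log2 fold changes were 0.05 (95% interval -0.33 to 0.42) and -0.28 (-0.77 to 0.21). The interval of *fasn-1* at 1 h, from 0.34 to 1.09, overlapped that at 24 h. The differences of *elo-1*, *elo-2* and *elo-3* were -0.14, -0.36 and -0.52 (adjusted p = 0.999 each). For *elo-5* and *elo-6* the intervals were wider than for *fasn-1*, from -1.38 to 0.49 for *elo-5* and from -1.29 to 1.00 for *elo-6*, whose ranges were 55.6 to 69.1 CPM against 67.7 to 94.2 CPM and 345 to 489.5 CPM against 370.5 to 519 CPM. The ranges overlapped for all 7 genes. A direct test of the change of the food effect with time passed for none of the 7 (0.661% and 0.31% of all genes passed upwards and downwards), with *fasn-1* at -0.67 ± 0.26 (adjusted p = 0.368), *pod-2* at 0.65 ± 0.34 (adjusted p = 0.75) and *elo-3* at -1.88 ± 0.64 (adjusted p = 0.267). Without IvF replicate A at 1 h the value of *elo-3* was -0.81 (adjusted p = 0.794), that of *elo-1* moved from -0.77 to -0.15 and that of *elo-2* from -0.26 to 0.46. Those of *elo-5* and *elo-6* were 0.50 and 0.94. For *fasn-1* and *elo-3* the unadjusted p with all libraries was 0.0146 and 0.00775, the only 2 below 0.05, and DESeq2 also called none.

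**Figure D3:**
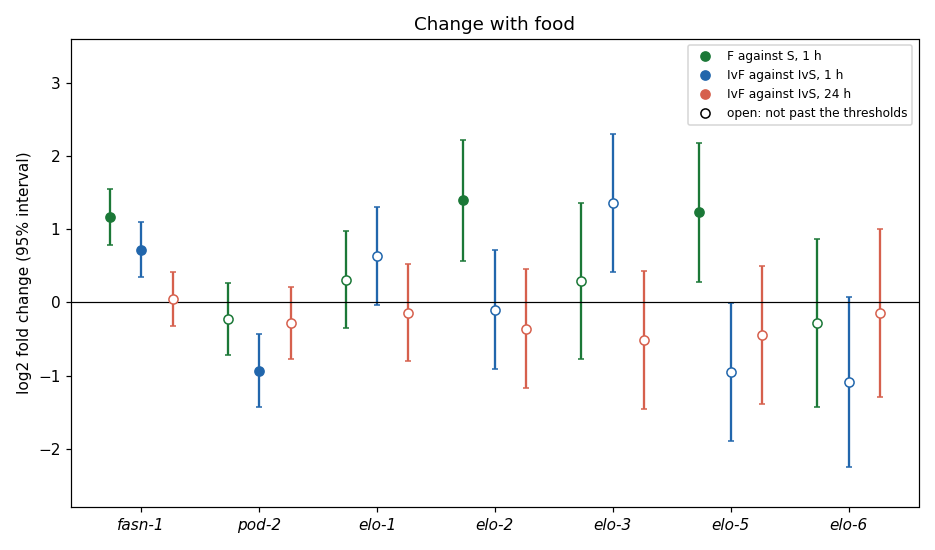
Log2 fold change with food of the 7 genes for F against S at 1 h (green), IvF against IvS at 1 h (blue) and IvF against IvS at 24 h (red), with 95% intervals; filled points passed the thresholds. *fasn-1* was above 0 at 1 h with and without ivermectin (0.72 and 1.17) and near 0 at 24 h (0.05), and *elo-5* was above 0 without ivermectin (1.23) and below 0 with it at 1 h (-0.95).

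The food effect at 1 h differed between larvae without and with ivermectin for *elo-5*, for which the difference (F against S) minus (IvF against IvS) was 2.18 ± 0.64 on the log2 scale (adjusted p = 0.0315). Of all genes 5.31% passed this test upwards and 5.02% downwards, and of the 7 genes *elo-5* was the only one. All F libraries were above all S libraries and all IvF libraries were below all IvS libraries for this gene. The value was 1.81 without S replicate 4 (adjusted p = 1.38e-04), and it did not pass without F replicate 1, IvS replicate A or B or IvF replicate D (adjusted p = 0.0506 to 0.0612), without the filter (0.108) or with the libraries of 1 h without and with ivermectin alone (0.0865). The difference for *elo-2* was 1.50 ± 0.56 (adjusted p = 0.0964), and it passed at 2.22 without IvF replicate A (adjusted p = 0.00189), at 1.77 without S replicate 1 (adjusted p = 0.0484), and with DESeq2, the filter at a mean of 5 CPM or the percentage of reads outside features in the fit (adjusted p = 0.024, 0.0386 and 0.0278). For *fasn-1* it was 0.45 ± 0.26 (adjusted p = 0.326) and for *pod-2* 0.71 ± 0.34 (adjusted p = 0.219, and 0.50 with adjusted p = 0.259 without S replicate 4), so a difference in the food effect was not shown for the 2 genes called in IvF against IvS. For *elo-1* and *elo-3* it was -0.32 and -1.07 (adjusted p = 0.773 and 0.402), and 0.30 and 0.00 without IvF replicate A (adjusted p = 0.702 and 1). For *elo-6* it was 0.81 (adjusted p = 0.625), and 0.43 without S replicate 4 (adjusted p = 0.516). These tests share the libraries of the comparisons above.

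From 1 h to 24 h in ivermectin with food *fasn-1*, *elo-1* and *elo-3* fell, by 1.79, 2.34 and 3.09 times, and none of the 7 genes rose. Of all genes 4.2% were higher and 5.72% lower at 24 h. The level of *fasn-1*, between 525 and 724 CPM at 1 h, was between 333 and 419 CPM at 24 h without overlap (log2 fold change -0.84 ± 0.18, adjusted p = 0.00286). For *elo-1* the 24 h libraries had 259, 322, 295 and 222 CPM and were all below those of 1 h (-1.22 ± 0.33, adjusted p = 0.0156), and without IvF replicate A at 1 h the change was -0.61 (adjusted p = 0.141). For *elo-3* they had 12.9, 11.6, 17.6 and 14.4 CPM (-1.63 ± 0.46, adjusted p = 0.0232), and the change was -0.56 without that library (adjusted p = 0.273). In these conditions 7 of 8 libraries correlated best with their own number in their deviations from the group means. With the replicate number as a block the change of *elo-3* was -1.47 and did not pass (adjusted p = 0.104). The call of *elo-3* was also lost without a filter, with the percentage of reads outside features in the fit and without replicate A, B or D at 24 h (adjusted p = 0.0516 to 0.0726), and that of *elo-1* without replicate D at 24 h (adjusted p = 0.0511). In a fit of the libraries compared neither passed (adjusted p = 0.163 for *elo-3* and 0.105 for *elo-1*). Libraries of *pod-2* and *elo-6* lay above those of 1 h without overlap in CPM, at log2 fold changes of 0.52 ± 0.24 (adjusted p = 0.198) and 0.74 ± 0.55 (adjusted p = 0.541) that did not pass. With the TMM scaling of the test both genes overlapped between the times. The highest library of 1 h and the lowest of 24 h had 950.6 and 903.4 CPM for *pod-2* and 302.2 and 264.8 CPM for *elo-6*. Without IvF replicate A at 1 h and S replicate 4 in the fit both genes passed, at 0.66 and 0.92 (adjusted p = 0.0183 and 0.0171). The change of *elo-2* was -0.25 (adjusted p = 0.888), or 0.47 without IvF replicate A at 1 h (adjusted p = 0.466), and that of *elo-5* was 0.26 (adjusted p = 0.91). Summed markers of 5 tissues were lower at 24 h without overlap: intestine (2072 to 2897 CPM at 1 h and 737 to 993 CPM at 24 h), pharyngeal muscle (4725 to 6103 and 2065 to 4186 CPM), body wall muscle (6298 to 8560 and 3768 to 5096 CPM), hypodermis (170 to 189 and 140.3 to 164 CPM) and neurons (900.1 to 983 and 786 to 877 CPM). Those of the germline overlapped between the times (42.0 to 70.5 and 61.8 to 73.5 CPM). The part of these markers in these results was not tested.

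Without food in ivermectin none of the 7 genes passed from 1 h to 24 h in the quasi-likelihood test, nor in edgeR's exact test or DESeq2, and none had an unadjusted p below 0.05 (2.07% of all genes were higher and 3.17% lower at 24 h). The level of *elo-1* was 292, 291, 293 and 262 CPM at 24 h, below all 4 libraries of 1 h, at a log2 fold change of -0.45 ± 0.32 (adjusted p = 0.532, 95% interval -1.12 to 0.21). The other 6 genes overlapped between the times, with log2 fold changes from -0.24 for *elo-5* to 0.25 for *elo-3*. Among them *fasn-1* changed by -0.17 (95% interval -0.54 to 0.20) and *pod-2* by -0.14 (-0.63 to 0.35). Summed markers of the same 5 tissues were lower at 24 h without overlap here as well. Those of the intestine were at 726 to 877 CPM against 1723 to 2768 CPM at 1 h. Those of the germline were higher at 24 h without overlap, at 55.0 to 62.6 CPM against 46.5 to 53.8 CPM. The part of these markers in these values was not tested.

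**Figure D4:**
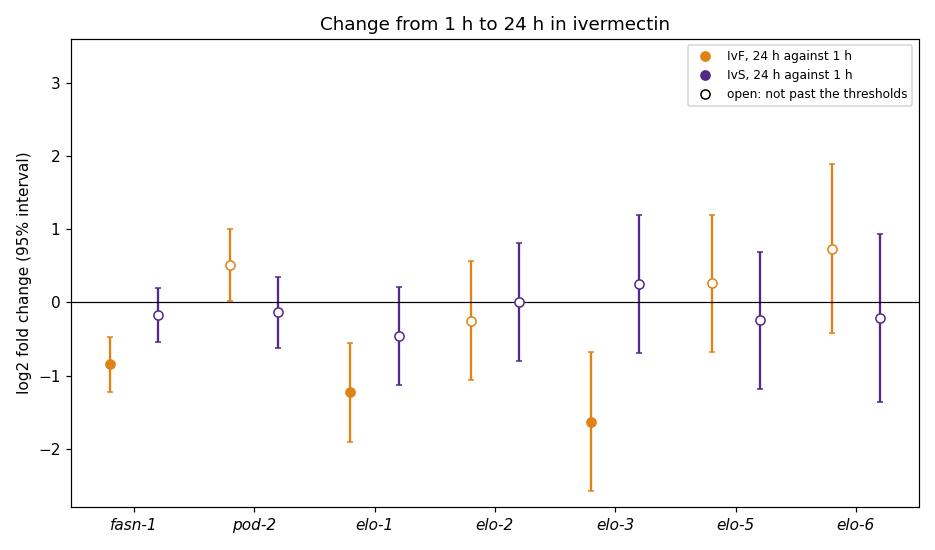
Log2 fold change from 1 h to 24 h of the 7 genes in ivermectin with food (orange) and without food (purple), with 95% intervals; filled points passed the thresholds. With food *fasn-1* (-0.84), *elo-1* (-1.22) and *elo-3* (-1.63) passed, and without food all 7 intervals included 0.

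Between libraries without and with ivermectin most of the 7 genes differed, as did most genes: 27.7% of all genes were higher and 33.1% lower in F than in IvF, and 29.1% higher and 28.2% lower in S than in IvS at 1 h. These shares are the background against which 6 of 7 genes in each comparison are read. The level of *pod-2* was lower without ivermectin in every library, by 2.90 times in F against IvF (log2 fold change -1.54 ± 0.24, adjusted p = 9.49e-06) and by 4.73 times in S against IvS (-2.24 ± 0.25, adjusted p = 8.03e-08). Likewise *elo-3* was lower, by 5.28 and 2.51 times. In the other direction *elo-1* was higher without ivermectin by 2.02 and 2.52 times, *elo-2* by 5.70 and 2.02 times and *elo-6* by 5.09 and 2.90 times. Without IvF replicate A the log2 fold change in F against IvF moved from -2.40 to -1.33 for *elo-3* (adjusted p = 6.51e-04), from 1.02 to 1.63 for *elo-1* (adjusted p = 1.55e-05) and from 2.51 to 3.23 for *elo-2* (adjusted p = 1.12e-07). For *elo-5* F was 9.08 times higher than IvF (log2 fold change 3.18 ± 0.49, adjusted p = 9.45e-06), while S against IvS gave 1.00 ± 0.45 (adjusted p = 0.061), or 1.32 without S replicate 4 (adjusted p = 9.29e-06). The synthase gene *fasn-1* did not pass in F against IvF (-0.20 ± 0.18, adjusted p = 0.34) and was lower in S than in IvS (-0.65 ± 0.18, adjusted p = 0.00379).

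The calls of *elo-2*, *elo-3* and *elo-6* in S against IvS did not hold without certain single libraries. The call of *elo-2* (log2 fold change 1.02 ± 0.40, adjusted p = 0.0307) was lost without S replicate 1 or 3 or IvS replicate B, C or D (adjusted p = 0.0561 to 0.149) and without a filter (0.102), and it was 1.25 without S replicate 4 (0.00332). That of *elo-3* (-1.33 ± 0.49, adjusted p = 0.0242) was lost without S replicate 1 or 2 or IvS replicate B (0.0502 to 0.0744), and it was -1.62 without S replicate 4 (0.021). That of *elo-6* (1.53 ± 0.56, adjusted p = 0.0233) was lost without S replicate 1 or 3 or IvS replicate B or D (0.0506 to 0.126), with no filter on low counts (0.0741) and when only the 8 libraries of S and IvS were fitted (0.108), whereas without S replicate 4 it was 1.87 (adjusted p = 1.51e-06).

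Scaling affected these comparisons more than those of food. With DESeq2's size factors the median over all genes of the log2 fold change moved from -0.13 to -0.26 in F against IvF and from -0.04 to -0.18 in S against IvS. All directions of the 7 genes held, and *elo-2* in S against IvS did not pass (0.87, adjusted p = 0.0516). With the percentage of reads outside features added to the fit, which differs between the arms, *elo-1* no longer passed in either comparison (0.46 and 0.64, adjusted p = 0.205 and 0.0956), *elo-2* and *elo-6* no longer passed in S against IvS (adjusted p = 0.539 and 0.292), and *fasn-1* passed in F against IvF (-0.56, adjusted p = 0.00851). Summed markers of pharyngeal muscle were 355 to 951 CPM without and 2065 to 6193 CPM with ivermectin, and those of body wall muscle 1838 to 3379 CPM and 3768 to 9723 CPM. Their part in these results was not tested.

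Over the 6 conditions *fasn-1* was highest in IvF at 1 h (645 ± 84.7 CPM), followed by F (474 ± 67.8), IvS at 1 h (393.5 ± 24.7), IvF at 24 h (371 ± 44.5), IvS at 24 h (336 ± 22.9) and S (184 ± 49.8), and only S did not overlap its neighbour in this order. For *pod-2* the order was IvS at 1 h (1525 ± 209), IvS at 24 h (1336 ± 179), IvF at 24 h (1176 ± 110), IvF at 1 h (790.5 ± 143), F (230.5 ± 35.6) and S (227 ± 63.8). The starved and 24 h libraries of *pod-2* with ivermectin overlapped their neighbours, as did F and S, while IvF at 1 h overlapped neither of its own. The order of *elo-1* was F (1054 ± 109), S (726 ± 246), IvF at 1 h (591.5 ± 317), IvS at 1 h (405 ± 19.2), IvS at 24 h (284.5 ± 14.96) and IvF at 24 h (275 ± 43.6), with no overlap only between the times. Levels of *elo-2* were 606 ± 152 CPM in F and 193 ± 88.3 CPM in S, which did not overlap, and 110.2 ± 11.5 to 136 ± 13.2 CPM in the overlapping conditions with ivermectin. Those of *elo-3* were 6.74 ± 1.48 CPM in F and 4.83 ± 2.19 CPM in S, below 14.2 ± 2.58 to 39.0 ± 34.5 CPM with ivermectin. For *elo-5* only F (369 ± 71.9 CPM) stood clear of its neighbour, S (132 ± 83.6), and the means with ivermectin ran down to 48.8 ± 12.3 CPM in IvF at 1 h. For *elo-6* F and S (1014 ± 160 and 1016 ± 714 CPM) overlapped each other and IvF at 1 h (235.5 ± 54.02 CPM) lay below the other conditions with ivermectin, which had 409.9 ± 59.7 to 510.1 ± 103 CPM. With TMM scaling some of this changed. For *fasn-1*, S (up to 283.2 CPM) then overlapped IvS at 24 h (from 281.2 CPM). For *pod-2* and *elo-6*, IvF at 1 h then overlapped IvF at 24 h. The mean of *pod-2* was then lower in F (254.1 CPM) than in S (297.4 CPM).

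Other genes of the pathway were compared from 5 lists, of which 26 genes were tested. In F against S 19.2% of these were higher and 11.5% lower, beside 13.6% and 15.4% of all genes. In F against S, 1 of 4 other elongase genes rose (*elo-9*, 1.65 ± 0.17, adjusted p = 6.44e-08) and none fell, while 0 of 2 tested genes of the other elongation steps and 0 of 6 tested desaturase genes passed. Of 10 genes that supply precursors 4 rose and 2 fell. Without S replicate 4, 2 of those that rose, *bckd-1A* and *bckd-1B*, which encode subunits of the branched-chain keto acid dehydrogenase, were at 0.49 and 0.46, under the fold threshold. The largest rises were those of the acyl-CoA synthetase genes *acs-1* (1.52 ± 0.23, adjusted p = 1.38e-05), which acts on branched-chain fatty acids, and *acs-5* (1.46 ± 0.34, adjusted p = 0.00183). The falls were those of *mlcd-1* (-1.86 ± 0.21, adjusted p = 1.55e-07), whose product removes malonyl-CoA, and of the biotin ligase gene *bpl-1* (-0.66 ± 0.16, adjusted p = 0.00235). Of 4 regulators *mdt-15*, a Mediator subunit, fell (-0.54 ± 0.15, adjusted p = 0.00674), which without F replicate 4, S replicate 3 or S replicate 4 was -0.43, -0.50 and -0.49 and did not pass the fold threshold. Median log2 fold changes were 0.13 for the elongases, 0.24 for the other steps, 0.14 for the desaturases, 0.33 for the supply and -0.35 for the regulators, beside -0.07 over all genes. The reductase gene *let-767* and the desaturase gene *fat-7* were listed at 0 in every library and were not tested. Whether these 0 counts come from expression or from the annotation and counting was not tested.

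With ivermectin at 1 h *mlcd-1* fell with food as well (-1.03 ± 0.20, adjusted p = 0.00158), and *acs-5* (1.52 ± 0.34, adjusted p = 0.00652) and the aminotransferase gene *bcat-1* (0.64 ± 0.18, adjusted p = 0.0292) rose. IvF replicate A had 419 CPM of *acs-5* against 121 to 155 CPM in the rest of IvF and 70.3 to 84.3 CPM in IvS, and without it the change was 0.75 (adjusted p = 0.0382). That of *bcat-1* did not pass without IvF replicate A or B or IvS replicate A, B or D (adjusted p = 0.0719 to 0.11). No other gene of the lists passed in IvF against IvS at 1 h and none passed at 24 h, in edgeR's quasi-likelihood test. At 1 h 7.69% of the 26 genes were thus higher and 3.85% lower, beside 3.27% and 2.29% of all genes. From 1 h to 24 h with food *mlcd-1* rose (1.22 ± 0.20, adjusted p = 1.67e-04) and *acs-5* fell (-1.48 ± 0.34, adjusted p = 0.00493, and -0.71 with adjusted p = 0.0296 without IvF replicate A at 1 h). The elongase gene *elo-9* fell by 0.53 (adjusted p = 0.0416), a call lost without IvF replicate A at 1 h (-0.37, adjusted p = 0.18) or replicate A, C or D at 24 h (0.0781 to 0.111). The desaturase gene *fat-2* rose by 1.11 (adjusted p = 0.0186), a call lost without IvF replicate C or D at 1 h (adjusted p = 0.0605 and 0.0532). Without food *fat-2* (1.39, adjusted p = 0.00666) and the citrate lyase gene *acly-2* (0.69, adjusted p = 0.00382) rose. The food effect differed with ivermectin for *elo-9* (1.25 ± 0.24, adjusted p = 0.00107) and *acly-2* (-0.74 ± 0.21, adjusted p = 0.0214, and 0.0502 to 0.057 without F replicate 1, S replicate 3 or IvS replicate D). In F against IvF 9 of the 26 genes were higher and 9 lower (34.6% each, beside 27.7% and 33.1% of all genes), among them *elo-9* (1.87), *hpo-8* (1.51), which encodes the dehydratase of elongation, *elo-7* (-2.38) and the SREBP gene *sbp-1* (-1.83). Counts of *elo-7* were near 0, at 1 to 4 reads in a library of F and 13 to 58 in IvF at 1 h. Those of *elo-4* were also low, at 16 to 35 and 12 to 37 reads. Without IvF replicate A the calls of *acs-5* (-0.995, and -0.23 without it), *fat-5* (-1.75 and 0.07) and *elo-4* (1.01 and 0.83) in F against IvF were lost. In S against IvS 8 were higher and 5 lower (30.8% and 19.2%, beside 29.1% and 28.2%), with *hpo-8* at 1.32 and *sbp-1* at -1.45.

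**Figure D5:**
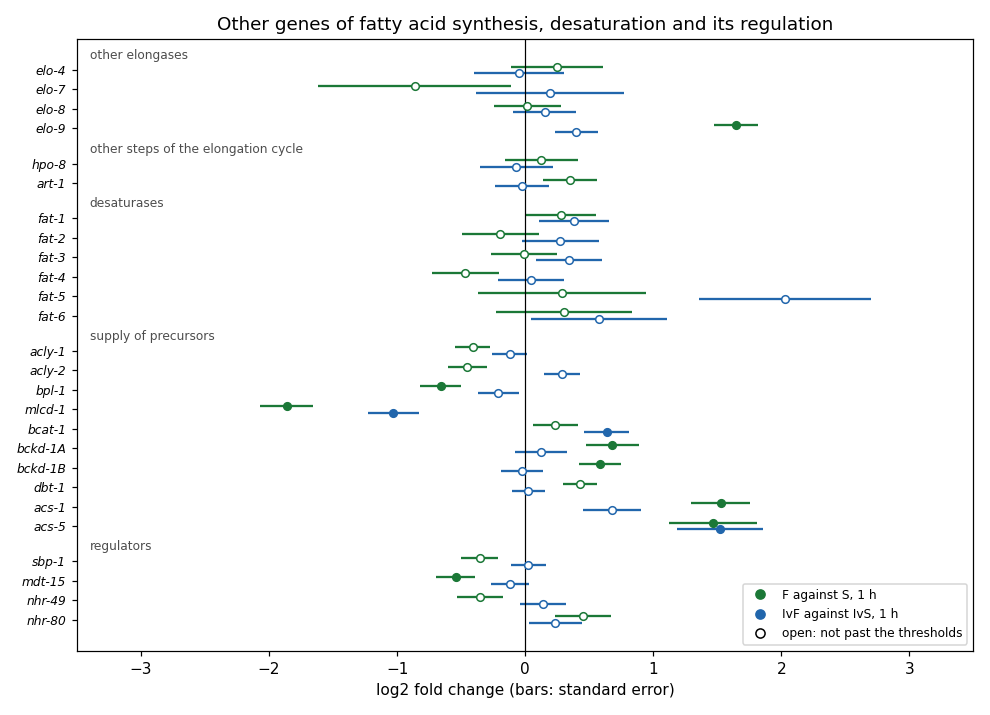
Log2 fold change (points) and its standard error (bars) of 26 other genes of the pathway for F against S (green) and IvF against IvS (blue) at 1 h, grouped by list; filled points passed the thresholds. *acs-5* was above 0 and *mlcd-1* below 0 in both comparisons, and *elo-9* passed in F against S (1.65).

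Patterns over the 24 libraries were compared after centring log2(CPM + 1) separately on the 8 libraries without and the 16 with ivermectin. The genes nearest to *fasn-1* were *ndg-4* and the aconitase gene *aco-1*, with root mean square differences of 0.14 and 0.17, where *fasn-1* itself varied by 0.53. Those nearest to *pod-2* were T10B10.4 and F59B2.3 (0.25 each, against 0.38), to *elo-1* *spig-1* and *ept-1* (0.22 and 0.23, against 0.50), to *elo-2* *tmem-135* and *sec-61.B* (0.31 and 0.35, against 0.69) and to *elo-3* *txt-8* and H14N18.4 (0.38 and 0.39, against 0.62). The acyl-CoA synthetase gene *acs-19* was near both *elo-5* (0.46) and *elo-6* (0.53), next to C23H5.8 for *elo-5* (0.51) and T02G5.7 for *elo-6* (0.44), where these genes varied by 0.94 and 0.98. The difference between *elo-5* and *elo-6* themselves was 0.46. Libraries share their depth and group, and S replicate 4 contributes to these values, which are a description.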

How the data were processed

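The deposited values are whole-number counts of reads per gene, 1 file per library, which the authors made by mapping with Bowtie 1.1.2 to WS210 with WS220 transcripts and counting with HTSeq, without normalization. How reads with several matches were handled, and the mode of HTSeq, are not given in the sources used here. The totals that HTSeq adds to each file name no gene. They were left out of library sizes and used only for the percent of aligned reads outside features.

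Counts were analysed in R 4.3.3 with edgeR 4.0.16 (TMM scaling, robust quasi-likelihood F test) in 1 fit of 6 group means over 24 libraries, with more than 1 CPM in at least 4 libraries as the filter and Benjamini-Hochberg adjustment over the 19050 genes tested in each of 7 comparisons and 2 interactions. CPM and CPM per kb were computed here, by library total and the union of exons in WBcel235, in which 44111 of 44968 identifiers had a name. SE is the absolute log2 fold change divided by the square root of F. Overlap between groups was judged in CPM by library total unless TMM scaling is named. It is a description of each gene, since the share of all genes that overlap was not computed. The study calls the replicates biological. Whether each came from a separate culture is not stated in the sources used here, so p-values measure the spread between these libraries. No 2 libraries of a condition agreed within sampling noise.

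The alternatives were edgeR's exact test, DESeq2 1.42.0, its size factors in the edgeR fit, a replicate block, no filter or one at a mean of 5 CPM, the percentage of reads outside features as a covariate, a fit of the libraries compared and each library left out in turn. Leaving out S replicate 4 and IvF replicate A at 1 h together was chosen after seeing the data. Same-numbered libraries of IvF at 1 h and 24 h correlated at 0.163 to 0.75 in their deviations from the group means. Libraries of unlike number reached 0.563 there, so a pairing is not established. The blocked value is given for *elo-3*, the only gene of the 7 whose call the block changed. All 7 genes are described in each comparison. From the lists at most 2 genes a list are named, those past the thresholds with the largest absolute log2 fold change. Beside this rule *acs-5* and *bpl-1* in F against S *bcat-1* in IvF against IvS, *bckd-1A*, *bckd-1B*, and *acs-5*, *fat-5* and *elo-4* in F against IvF are named after their values were seen. The nearest genes are the 2 with the smallest root mean square difference among genes other than the 7. Members, lists and alternatives were chosen with earlier results of these data known. The fit was tested on simulated data.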

Additional observations from a re-analysis of the deposited data

Results flagged for a closer look

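In 5 of 42 groups of 4 libraries (7 genes in 6 conditions) the highest or lowest library was far from the others by Dixon's criterion, which chance meets in about 1 of 20 groups. These were *fasn-1* in S replicate 2 (258 CPM, the highest of its group), *pod-2* in F replicate 4 (283 CPM, the highest), *pod-2* in S replicate 4 (131 CPM, the lowest), *elo-1* in IvS replicate D at 24 h (262 CPM, the lowest) and *elo-3* in IvF replicate A at 1 h (90.6 CPM, the highest). The effect of food on *elo-5* at 1 h differed between larvae without and with ivermectin by 2.18 on the log2 scale in edgeR's quasi-likelihood test (adjusted p = 0.0315), higher with food in 4 of 4 libraries without ivermectin and lower in 4 of 4 with it.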

How the results depend on the processing

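No alternative reversed a call of the 7 genes. Of the 7 genes 2 passed in IvF against IvS at 1 h, and 4 with the libraries compared alone and 5 without S replicate 4 and IvF replicate A at 1 h. The calls over all genes were 623 higher and 436 lower, and 676 and 581 and 536 and 560 in these alternatives. In IvF at 24 h against 1 h 3 passed, and 1 with the libraries compared alone (over all genes 801 higher and 1089 lower, and 997 and 898). In S against IvS 6 passed, and 3 with the percentage of reads outside features as a covariate. Over all genes 5535 were higher and 5375 lower in S, and about 5040 and 4060 with the covariate. For the interaction of food with ivermectin 1 passed, and 2 with DESeq2, the filter at 5 CPM, the covariate or without both libraries, and 0 without a filter or with the libraries compared alone. Over all genes this interaction had 1011 calls upwards and 957 downwards. The alternatives gave about 1300 and 1260 (DESeq2), 1090 and 1400 (filter), 1320 and 1300 (covariate) and 1420 and 990 (without both libraries). Without a filter there were 703 and 674, and with the libraries compared alone 929 and 795. The cause of these shifts was not tested. Leaving out 1 library gave 2 to 3 genes in F against S, 1 to 3 in IvF against IvS at 1 h and in IvF at 24 h against 1 h, 3 to 7 in S against IvS, 6 in F against IvF and 0 to 2 for the interaction of food with ivermectin. Over all genes these fits gave 2498 to 2750 higher and 2570 to 3009 lower in F against S, beside 2599 and 2934. In IvF against IvS at 1 h they gave 393 to 602 higher and 319 to 444 lower. In S against IvS 3 passed without S replicate 1 (about 4840 and 4690 over all genes) or IvS replicate B (about 4870 and 5270). In IvF at 24 h against 1 h, 1 passed without replicate A at 1 h (996 and 826). It was also 1 without replicate D at 24 h (781 and 925). Both comparisons with 0 calls and the interaction with time stayed at 0 in all alternatives run. With the replicate number as a block 2 genes passed in IvF at 24 h against 1 h, and no other call of the 7 genes changed. In these 2 conditions 7 of 8 libraries correlated best with their own number. Over all genes the block moved the calls of IvF against IvS at 24 h from 111 higher and 37 lower to 174 and 82, those of IvS at 24 h against 1 h from 394 and 604 to 757 and 897 and those of the interaction with time from 126 and 59 to 237 and 114. DESeq2 gave 178 and 82 for IvF against IvS at 24 h and 199 and 213 for the interaction with time, and the filter at 5 CPM gave 3380 higher and 3534 lower genes in F against IvF, beside 5286 and 6300, and 3670 and 3147 in S against IvS, beside 5535 and 5375. In F and S, whose numbers are not stated to pair them, same-numbered libraries correlated at 0.058 to 0.498 and 6 of 8 correlated best with their own number, and in the other conditions with ivermectin 0 to 4 of 8 did. The exact test gives no interaction, and no block was set between the arms, which the labels number differently. TMM scaling moved 7 of 42 mean levels by more than 1 SD. Of the 14 nearest genes 12 and 13 were the same with pseudocounts of 0.1 and 5 CPM. The low counts of *elo-3* without ivermectin (29 to 77 reads) limit its precision.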
